A study of Mus musculus with 10 samples.

Results

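Fos, Fosb, Nr4a1, Egr1, Egr2, Egr3 and Myc are immediate early transcription factor genes and the growth regulator commonly listed with them. They were taken by symbol from an RNA-seq table of mouse splenic B lymphocytes, and are 7 of the 6610 genes that the table names. Each was summed over its RefSeq rows, 12 rows in all, and all 7 passed the filter on low values that left 4427 genes for testing. The 10 libraries form 5 groups of 2, and every group came from unmodified C57BL/6 mice, an inbred laboratory strain. In div12_48_d and div12_48_u (Phase II), cells that had already divided were kept for 48 h more with anti-CD40 at 0.12 µg/ml, and FACS separated those that divided again (div12_48_d) from those that did not (div12_48_u). In div12 and div0 (Phase I), a pulse of anti-IgM, which engages the antigen receptor, and anti-CD40, which engages a co-stimulatory receptor, was followed to 48 h, when divided cells (div12) and undivided cells (div0) were taken. The labels describe the naive group as resting B cells with no activation and do not say how these cells were purified. Each Phase I replicate pooled 4 to 5 mice, per the labels, which do not give the number of mice behind a Phase II replicate. The stimulus also differed, being anti-IgM with anti-CD40 in Phase I and anti-CD40 in Phase II. Phase II RNA came from fewer cells than Phase I RNA, so phase, stimulus, time in culture and cell input cannot be told apart.

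Immediate early genes are transcribed within minutes of a signal from factors already present in the cell, and their RNAs are short-lived. FOS and FOSB pair with JUN proteins to form AP-1, EGR1, EGR2 and EGR3 are zinc finger factors held in check by the corepressors NAB1 and NAB2, and NR4A1 is an orphan nuclear receptor widely used as a readout of antigen receptor signalling in lymphocytes. MYC pairs with MAX and drives the genes of ribosome production, nucleotide synthesis and cell growth, and in activated B cells its level bears on how long a cell goes on dividing.

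RefSeq promoter windows were available for 4 of the 7 genes (Fos, Fosb, Egr2 and Nr4a1). The 150 bases before the start site are shown for Fos, Egr2 and Nr4a1, genes of 3 different families whose levels were higher in every Phase II library than in every Phase I library, because these windows touch no annotated exon. Of the 5 Egr2 windows 2 touch none, and of these the one that holds the short CRE described next is shown. Capitals mark the short CRE (TGACG, or CGTCA where it lies on the other strand), part of the cAMP response element (CRE) that the factor CREB binds, and, in Egr2, also the CArG box, the core of the serum response element. The windows are, on build GRCm38.p6, chr12:85473740-85473889 (plus strand) for Fos, chr10:67537719-67537868 (plus strand) for Egr2 and chr15:101266696-101266845 (plus strand) for Nr4a1.
Fos: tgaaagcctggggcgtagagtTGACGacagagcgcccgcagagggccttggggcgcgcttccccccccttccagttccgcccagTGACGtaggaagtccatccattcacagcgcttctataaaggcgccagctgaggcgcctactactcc
Egr2: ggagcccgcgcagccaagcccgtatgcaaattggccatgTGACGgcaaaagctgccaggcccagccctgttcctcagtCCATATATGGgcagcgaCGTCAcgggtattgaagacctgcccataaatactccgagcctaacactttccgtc
Nr4a1: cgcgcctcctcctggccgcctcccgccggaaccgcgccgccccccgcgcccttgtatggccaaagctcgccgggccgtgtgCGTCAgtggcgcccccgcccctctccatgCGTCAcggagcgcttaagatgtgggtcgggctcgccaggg
Over the 250 bases before the start site, Fos held the short CRE at -129 and -66, Egr2 held it at -111 and, on the other strand, at -55, and Nr4a1 held it on the other strand at -233, -213, -69 and -40. Of 32841 RefSeq windows of that length 17.8% held at least 1 short CRE on either strand, a share in which the short CRE inside a full CRE (TGACGTCA, 1.55% of windows) is counted too. The CArG box of Egr2 lay at -72 to -63 and 1.47% of windows held one. The other Egr2 window without an exon, which belongs to another start site, held a CArG box at -72 to -63 from that start and no short CRE, and a further one, which overlaps an exon, held an E-box (6.02% of windows) and no short CRE. The Fos, Nr4a1 and printed Egr2 windows held no full CRE, EGR site (GCGTGGGCG), AP-1 site (TGANTCA) or E-box (CACGTG, the site of MYC and MAX), which says only that these letters are not in these bases.

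Values are TPM, a transcript abundance scaled for transcript length and to the same total in every library, so that levels of different genes can be set side by side. Sequencing depth is unknown, and p-values measure only the spread between these libraries. The B cell marker list summed to 36516 to 59201 TPM in the 8 cultured libraries and to 70496 and 66434 TPM in naive replicates 1 and 2. The SD over genes of the log2 ratio between replicates was 0.258 to 0.333 in the cultured groups and 0.553 in the naive group. The naive libraries also held more RNA of other cell types. The 15 listed myeloid markers summed to 296 to 885 TPM in cultured libraries and to 938 and 2791 TPM in naive replicates 1 and 2, and the 7 erythroid markers to 22.2 to 70.8 TPM and to 2766 and 3286 TPM. The macrophage gene C1qa was at 0 in all 8 cultured libraries, and 6 of the 15 myeloid markers were under 1 TPM in each of them. Mpeg1, the myeloid marker highest on average in culture, stood at 207 to 581 TPM there. In naive replicates 1 and 2 Mpeg1 stood at 102 and 210 TPM. Against naive cells 12 or 13 of the 15 were called lower in each cultured group and 0 to 2 higher. Of all genes, 27.2% to 47.5% were called lower and 15.2% to 21.8% higher. NK cell markers summed to 4.01 to 7.20 TPM in cultured libraries against 94.0 and 142 TPM in the naive pair. T cell markers summed to 8.74 to 23.0 TPM against 53.6 and 66.9 TPM. The T cell marker highest on average in culture, Il7r, stood at 1.83 to 17.3 TPM there. In naive replicates 1 and 2 Il7r stood at 7.29 and 9.16 TPM. The 8 listed heat shock genes, which respond to stress, summed to 7164 to 11026 TPM in cultured libraries and to 6896 and 7580 TPM in the naive pair, sums carried mostly by Hspa8 and Hsp90ab1. The stress-inducible Hspa1a and Hspa1b, near-identical copies whose split is uncertain, were lower in every cultured library than in the naive pair. Hspa1a stood at 0.893 to 3.06 TPM in cultured libraries and at 6.53 and 8.37 TPM in naive replicates 1 and 2, and Hspa1b at 0.548 to 2.64 TPM and at 4.12 and 23.8 TPM. Hspa1a, named after its values were seen, was called lower than in naive cells in all 4 cultured groups (-1.71 to -1.38, limma adjusted p 0.00264 to 0.00884). Hspa1b was called lower than in naive cells in div12_48_d (-1.65 ± 0.63, limma adjusted p = 0.0487), div12 (-2.41 ± 0.63, adjusted p = 0.00931) and div0 (-2.02 ± 0.63, adjusted p = 0.0262), and stood at -1.72 ± 0.63 in div12_48_u (adjusted p = 0.0584). The part of these other cell types, of the heat shock genes and of naive cell purification in any result against naive cells was not tested. In such bulk samples, fewer cells of a type and less RNA per cell cannot be told apart.

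The 7 genes fell into different patterns over the groups. Fos, Fosb and Nr4a1 were far higher in both naive libraries than in any cultured one, the EGR genes reached the naive range or passed it in div12_48_u cells, and Myc stayed within a narrow band in all cultured cells. Together the 7 genes made up 0.0798% and 0.0925% of all TPM in the div12_48_d libraries, 0.154% and 0.128% in div12_48_u, 0.0340% and 0.0320% in div12, 0.0643% and 0.0525% in div0, and 0.831% and 0.358% in the naive libraries.

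**Figure D1:**
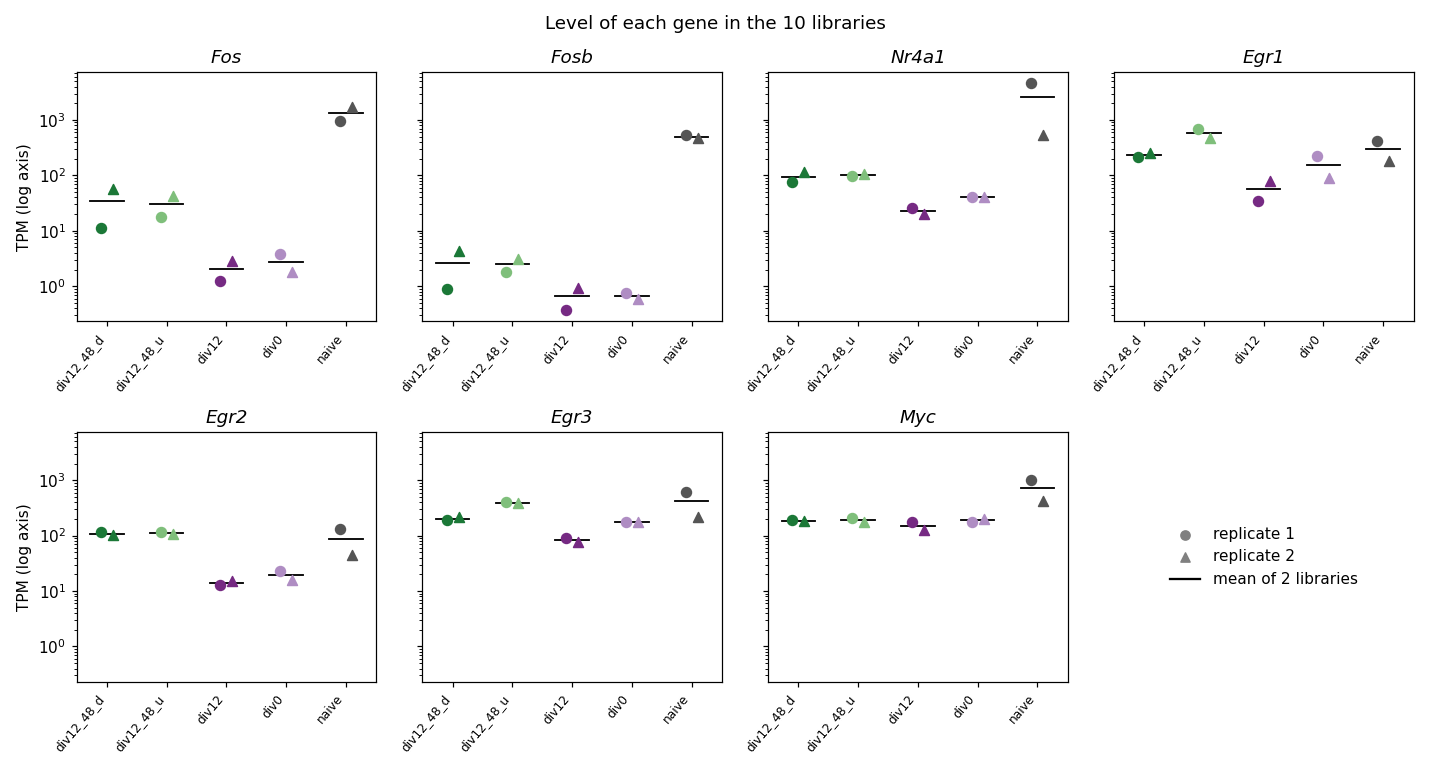
TPM on a log axis for each of the 7 genes in div12_48_d, div12_48_u, div12, div0 and naive libraries, with circles for replicate 1, triangles for replicate 2 and lines for the mean of the 2. Fos, Fosb and Nr4a1 stand far above all other groups in naive libraries, the EGR genes are lowest in div12, and Myc lies between 125 and 212 TPM in the 8 cultured libraries.

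Fos (chr12:85473890-85477274, plus strand, build GRCm38.p6 here and below) was lowest in Phase I cells and highest in naive cells. It stood at 11.02 and 57.3 TPM in div12_48_d, at 17.97 and 42.4 TPM in div12_48_u, at 1.25 and 2.85 TPM in div12, at 3.74 and 1.83 TPM in div0, and at 970.4 and 1702 TPM in the naive libraries. The libraries of the Phase II groups overlapped with each other, as did those of the Phase I groups, and there was no overlap between phases or with naive cells. The mean was 34.1 ± 32.7 TPM in div12_48_d and 30.2 ± 17.3 TPM in div12_48_u (SD, n = 2 each), or 2.56% and 2.26% of the naive mean, against 0.153% in div12 and 0.208% in div0.

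Fosb (chr7:19302696-19310118, minus strand), which encodes a close relative of FOS, was near the bottom of the measured range in every cultured library. It stood at 0.904 and 4.27 TPM in div12_48_d, 1.83 and 3.14 TPM in div12_48_u, 0.371 and 0.945 TPM in div12, 0.742 and 0.598 TPM in div0, and 536 and 463 TPM in naive libraries. Cultured groups reached at most 0.518% of the naive mean. Unlike Fos, 1 div12_48_d library lay below 1 div12 library, so Phase II and Phase I were not fully apart. Fosb was also the gene on which the naive pair differed least, with a ratio of replicate 1 to replicate 2 of 1.16.

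Nr4a1 (chr15:101253902-101274795, plus strand) stood at 74.8 and 115 TPM in div12_48_d, 96.7 and 107 TPM in div12_48_u, 25.5 and 19.8 TPM in div12, 40.8 and 40.9 TPM in div0, and 4603 and 546 TPM in the naive libraries. The naive replicates were 8.44-fold apart, the widest gap of the 7 genes, and naive replicate 1 ranked Nr4a1 33rd among all genes and replicate 2 ranked it 274th. Every Phase II library was above both div0 libraries, which in turn were above both div12 libraries. The Phase II groups overlapped with each other.

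Egr1 was the EGR gene with the highest mean in any group. It stood at 218 and 251 TPM in div12_48_d, 691 and 466 TPM in div12_48_u, 34.5 and 78.1 TPM in div12, 219 and 88.1 TPM in div0, and 414 and 178 TPM in naive libraries. Both div12_48_u libraries lay above all other libraries, with a mean of 195% of the naive mean, and both div12 libraries lay below all others. The div12_48_d, div0 and naive libraries overlapped and are not ordered beyond their spread.

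Egr2 (chr10:67534469-67542188, plus strand) split the cultured libraries by phase. It stood at 114 and 101 TPM in div12_48_d, 119 and 108 TPM in div12_48_u, 13.05 and 15.01 TPM in div12, 23.0 and 15.8 TPM in div0, and 133 and 43.9 TPM in naive libraries. The lowest Phase II library was above the highest Phase I library. The naive libraries, 3.03-fold apart, lay on either side of the Phase II libraries, whose group means were 122% of the naive mean in div12_48_d and 128% in div12_48_u.

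Egr3 (chr14:70077317-70082613, plus strand) was even within each cultured group. It stood at 190.1 and 217 TPM in div12_48_d, 403 and 381 TPM in div12_48_u, 91.2 and 78.3 TPM in div12, 178 and 176 TPM in div0, and 625 and 221 TPM in naive libraries. The 4 cultured groups followed each other with no overlap, in the order div12_48_u, div12_48_d, div0 and div12, and each cultured pair was within 1.16-fold. The naive pair, 2.82-fold apart, spanned the div12_48_u pair.

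Myc (chr15:61985341-61990361, plus strand) stood at 189 and 180.2 TPM in div12_48_d, 212 and 173 TPM in div12_48_u, 174 and 125 TPM in div12, 177 and 202 TPM in div0, and 1028 and 429 TPM in naive libraries. Both naive libraries were above all cultured libraries. The mean was 25.3% of the naive mean in div12_48_d, 26.4% in div12_48_u, 20.5% in div12 and 26.02% in div0, and the div12_48_d, div12_48_u and div0 libraries overlapped.

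Against naive cells, Phase I cells had lower levels of nearly all 7 genes, and Phase II cells of Fos, Fosb, Nr4a1 and Myc. A gene is called here at a two-sided p under 0.05 from limma after Benjamini-Hochberg adjustment across the 4427 genes, and changes are on the log2(TPM + 1) scale ± SE, which understates the change of low genes. These 4 comparisons share the naive pair, and their values are set side by side without a test across them. In div12_48_d 4 of 7 genes fell (Fos, Fosb, Nr4a1 and Myc), where 40.6% of all tested genes fell. In div12_48_u 4 of 7 fell, and these were again Fos, Fosb, Nr4a1 and Myc, where 27.2% of all genes fell. In div12 7 of 7 fell against 47.5% of all genes, and in div0 6 of 7 fell against 39.6%.

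The largest changes were those of Fosb and Fos. Fosb changed by -7.30 ± 0.43 in div12_48_d (limma adjusted p = 5.87e-06), -7.19 ± 0.43 in div12_48_u, -8.26 ± 0.43 in div12 and -8.23 ± 0.43 in div0, and at 0.371 to 4.27 TPM in culture these values depend on the added constant. Fos changed by -5.60 ± 0.72 in div12_48_d (limma adjusted p = 0.000267) and -5.49 ± 0.72 in div12_48_u (adjusted p = 0.000591). Nr4a1 changed by -4.08 ± 0.78 in div12_48_d (adjusted p = 0.00209) and -3.95 ± 0.78 in div12_48_u (adjusted p = 0.00418). Without naive replicate 1 the Nr4a1 change in div12_48_d was -2.55, and without replicate 2 it was -5.62. The Nr4a1 call in div12_48_u was lost when only the compared groups were fitted (adjusted p = 0.0574).

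Myc changed by nearly the same amount in each cultured group, -1.84 ± 0.35 in div12_48_d (limma adjusted p = 0.00199), -1.79 ± 0.35 in div12_48_u (adjusted p = 0.00388), -2.16 ± 0.35 in div12 (adjusted p = 0.000709) and -1.81 ± 0.35 in div0 (adjusted p = 0.003). Without naive replicate 1, whose level was 2.40 times that of replicate 2, the change in div12_48_d was -1.21, and without replicate 2 it was -2.47.

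In Phase I all 3 EGR genes were called lower in div12, and Egr2 and Egr3 in div0. In div12 Egr1 changed by -2.36 ± 0.54 (limma adjusted p = 0.00475), Egr2 by -2.37 ± 0.42 (adjusted p = 0.00123) and Egr3 by -2.12 ± 0.38 (adjusted p = 0.00124). In div0 Egr2 fell by 1.95 (adjusted p = 0.00516), Egr3 had a change of -1.06 ± 0.38 (adjusted p = 0.0413) and Egr1 one of -0.96 ± 0.54 (adjusted p = 0.165). The Egr3 call in div0 was lost under most alternatives, including without naive replicate 1 (-0.32, adjusted p = 0.0617) and with quantile normalization (adjusted p = 0.0894), and the Egr2 call was lost when only the compared groups were fitted (adjusted p = 0.0609). Without naive replicate 1 or replicate 2 the Egr2 change was -1.16 or -2.74 in div0 and -1.58 or -3.16 in div12, and that of Egr3 in div12 was -1.38 or -2.87.

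In Phase II the EGR values against naive cells depended on which naive library was used. Egr1 stood at -0.22 ± 0.54 in div12_48_d and 1.06 ± 0.54 in div12_48_u, with limma adjusted p = 0.749 and 0.147. Egr2 stood at 0.49 ± 0.42 and 0.56 ± 0.42, and without naive replicate 1 at 1.28 in div12_48_d and 1.35 in div12_48_u. Egr3 stood at -0.87 ± 0.38 in div12_48_d and 0.08 ± 0.38 in div12_48_u. In div12_48_u Egr3 stood at 0.82 without naive replicate 1 and at -0.67 without naive replicate 2, and in div12_48_d at -1.62 without naive replicate 2. A single naive library leaves no naive spread in the fit, so these values are given as effect sizes only.

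**Figure D2:**
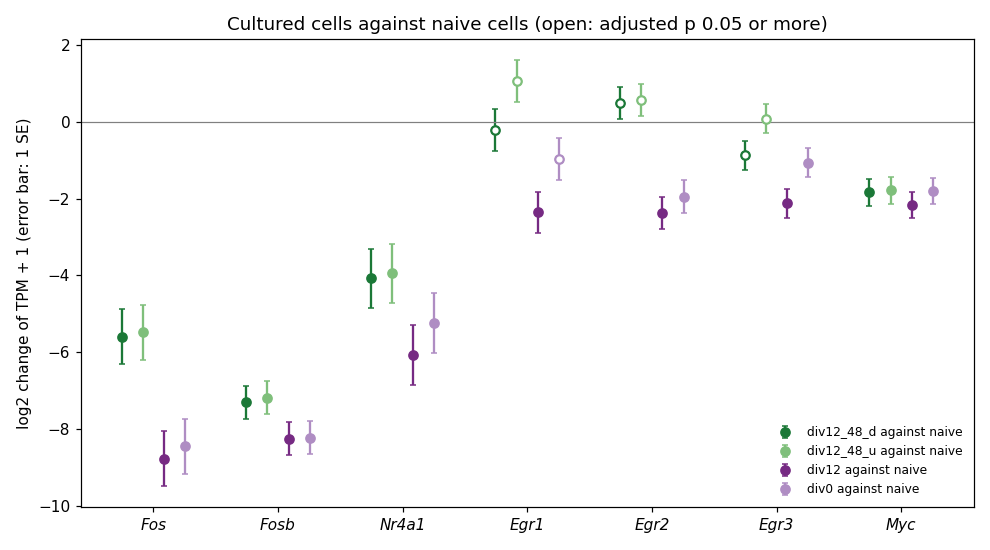
Log2 change of TPM + 1 in div12_48_d, div12_48_u, div12 and div0 against naive libraries for each gene, with bars of 1 SE and open points where the limma adjusted p was 0.05 or more. Fos, Fosb, Nr4a1 and Myc are below 0 and filled in all 4 comparisons, and the Phase II points of the EGR genes are open.

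TPM is relative to the listed transcripts, and the median change of all tested genes against naive cells was -0.21 in div12_48_d, -0.11 in div12_48_u, -0.35 in div12 and -0.24 in div0. With median-ratio scaling these medians were -0.02, 0.02, -0.04 and -0.03, and the share of called genes that were higher was 50.5%, 51.7%, 48.8% and 49.2%, against 34.9%, 35.9%, 29.0% and 27.97% with TPM as deposited. The number of the 7 genes called lower stayed at 4, 4 and 7 in div12_48_d, div12_48_u and div12 under both, and was 5 in place of 6 in div0.

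Between the phases, Fos, Egr1 and Egr2 were called higher in both Phase II groups than in the div12 cells from which they were cultured. Egr3 was called higher in div12_48_u, whose cells had not divided again. The Fos calls, and the Egr1 call in div12_48_d, were lost under some alternatives given below. Compared with div12, 3 of 7 genes rose in div12_48_d (Fos, Egr1 and Egr2), where 11.9% of all genes rose, and 4 of 7 rose in div12_48_u (Fos, Egr1, Egr2 and Egr3), where 27.7% of all genes rose. The median change over the 7 genes was 1.99 in div12_48_d and 2.20 in div12_48_u, beside 0.08 and 0.16 over all tested genes. Both comparisons share the div12 libraries. The summed B cell markers stood at 38364 and 43232 TPM in div12_48_d, 59201 and 55940 TPM in div12_48_u and 40806 and 36516 TPM in div12, and the summed plasma cell markers at 972 and 1193 TPM, 458 and 480.1 TPM, and 425 and 389 TPM. Their part in these results was not tested.

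Egr2 had the largest change against its error. It was 2.86 ± 0.42 higher in div12_48_d (limma adjusted p = 0.00362) and 2.93 ± 0.42 higher in div12_48_u (adjusted p = 0.00124), a ratio of TPM + 1 of 7.24 and 7.61. It was called in these 2 comparisons under every alternative run. Egr1 was 2.15 ± 0.54 higher in div12_48_d (adjusted p = 0.0318) and 3.42 ± 0.54 higher in div12_48_u (adjusted p = 0.00182). Egr3 was 2.20 ± 0.38 higher in div12_48_u (adjusted p = 0.00249) and had a change of 1.25 ± 0.38 in div12_48_d (adjusted p = 0.0568).

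Fos was 3.17 ± 0.72 higher in div12_48_d (limma adjusted p = 0.0213) and 3.29 ± 0.72 higher in div12_48_u (adjusted p = 0.00732). Its call in div12_48_d was lost without div12_48_d replicate 2, the library at 57.3 TPM (2.03, adjusted p = 0.113), and without div12 replicate 1 or 2 (adjusted p = 0.101 and 0.0665), and its call in div12_48_u was lost without div12_48_u replicate 2 (2.69, adjusted p = 0.0542). The Fos call in div12_48_d was also lost with a pseudocount of 5 (limma adjusted p = 0.0505), no filter (0.0921) and the compared groups alone (0.102). The Egr1 call in div12_48_d was lost without either div12_48_d library, either div12_48_u library or div12 replicate 1. Its change was 1.57 without div12 replicate 1. The Egr1 call was also lost with no filter (limma adjusted p = 0.121), the compared groups alone (0.0567) and no trend (0.0503).

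Fosb, Nr4a1 and Myc did not pass. Fosb had changes of 0.96 ± 0.43 in div12_48_d (limma adjusted p = 0.173) and 1.07 ± 0.43 in div12_48_u (adjusted p = 0.0776), at levels near 1 TPM. In div12_48_u Fosb came just under the threshold with a pseudocount of 0.1 (1.83, adjusted p = 0.0488) and with the compared groups alone (adjusted p = 0.0496). Without the naive group Fosb did not pass there (adjusted p = 0.1). Nr4a1 had changes of 1.99 ± 0.78 (adjusted p = 0.12) and 2.13 ± 0.78 (adjusted p = 0.0564), although all 4 Phase II libraries were above both div12 libraries. Its SE holds the gap between the naive libraries, because the spread of each gene is shared over all groups. Without the naive group the SE was 0.21 and Nr4a1 was called in both, with adjusted p = 0.00194 and 0.000786. Egr3 was then called in div12_48_d too (adjusted p = 0.00101), so that 5 of 7 genes were called higher in each, where 15.8% of all genes were called higher in div12_48_d and 32.9% in div12_48_u.

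**Figure D3:**
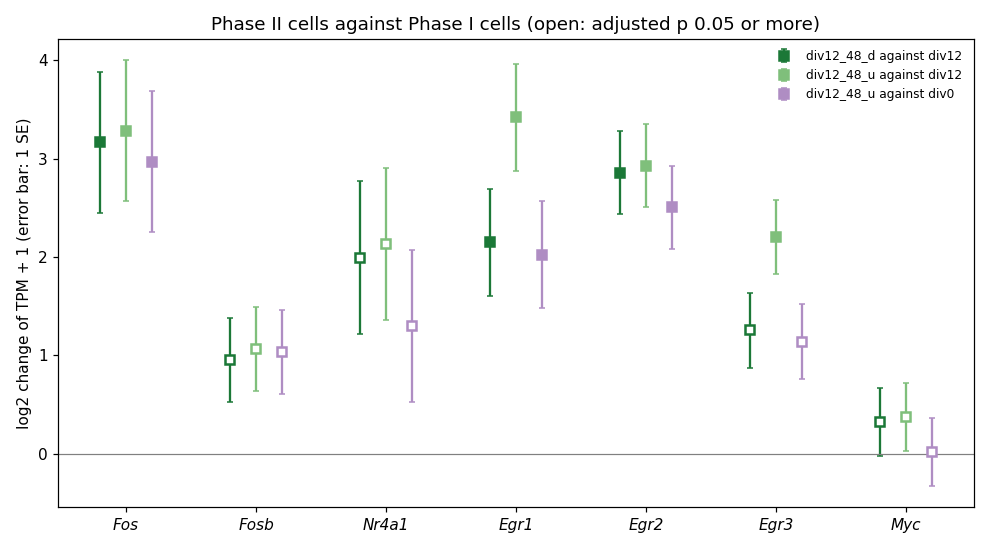
Log2 change of TPM + 1 in div12_48_d against div12, div12_48_u against div12 and div12_48_u against div0 for each gene, with bars of 1 SE and open squares where the limma adjusted p was 0.05 or more. Fos, Egr1 and Egr2 are filled in all 3 comparisons, Egr3 in div12_48_u against div12, and Myc lies nearest to 0.

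Phase II cells that did not divide again were also set against undivided Phase I cells, so these groups differ in earlier division as well as in phase. In div12_48_u compared with div0, 3 of 7 genes rose (Fos, Egr1 and Egr2), where 10.2% of all genes rose. Fos was 2.97 ± 0.72 higher (limma adjusted p = 0.0277), Egr1 2.02 ± 0.54 higher (adjusted p = 0.0402) and Egr2 2.51 ± 0.42 higher (adjusted p = 0.00776). Egr3 had a change of 1.14 ± 0.38 (adjusted p = 0.0789), Nr4a1 of 1.30 ± 0.78 (adjusted p = 0.298) and Myc of 0.02 ± 0.35 (adjusted p = 0.983). The Egr1 call was lost under 11 alternatives, including median-ratio scaling (adjusted p = 0.0528), quantile normalization (adjusted p = 0.0503), no trend (adjusted p = 0.0618) and without div0 replicate 2 (1.37, adjusted p = 0.268). Without div0 replicate 2 none of the 7 was called (Egr2 2.25, adjusted p = 0.0836), without div12_48_u replicate 1 or replicate 2 there was 1, and without the naive group, or either of its libraries, there were 5, with Egr3 (adjusted p = 0.00236) and Nr4a1 (adjusted p = 0.00966) added, where 14.6% of all genes rose.

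Within each phase, cells that divided in it were set against cells that did not. None of the 7 genes passed in the fit of all libraries, and Egr1 and Egr3 had the lowest p in both phases. In div12_48_d against div12_48_u 0 of 7 genes passed (2 had an unadjusted p under 0.05, Egr1 and Egr3), where 25.6% of all genes were called. Egr1 stood at -1.27 ± 0.54 (limma adjusted p = 0.123) and Egr3 at -0.95 ± 0.38 (adjusted p = 0.103), and for both genes the 2 div12_48_d libraries lay below the 2 div12_48_u libraries. Egr2 stood at -0.07 ± 0.42 and Myc at -0.05 ± 0.35. In div12 against div0 0 of 7 passed (2 had an unadjusted p under 0.05, again Egr1 and Egr3), where 8.76% of all genes were called, with Egr1 at -1.40 ± 0.54 (adjusted p = 0.133), Egr3 at -1.06 ± 0.38 (adjusted p = 0.111), Nr4a1 at -0.83 ± 0.78 (adjusted p = 0.534) and Myc at -0.36 ± 0.35 (adjusted p = 0.552).

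Egr3, summed over its rows, passed in both division comparisons once the naive group was left out. It was then lower by 0.95 ± 0.10 in div12_48_d against div12_48_u, a change of -0.95 with limma adjusted p = 0.00216, and had a change of -1.06 in div12 against div0 with adjusted p = 0.0174, where Nr4a1 was called as well (-0.83, adjusted p = 0.0475). Of all genes, 17.2% were then called lower in div12_48_d against div12_48_u and 7.59% in div12 against div0. B cell markers were lower in the divided cells too, at 38364 and 43232 TPM in div12_48_d against 59201 and 55940 TPM in div12_48_u and at 40806 and 36516 TPM in div12 against 55771 and 53475 TPM in div0, and their part in the Egr3 result was not tested. Leaving out either naive library alone gave the same calls. Whether division went with a different change in the 2 phases was tested as 1 contrast, in which 0 of 7 genes and 0 of 4427 (0%) were called by limma (0 of 7 and 438 genes had an unadjusted p under 0.05). The difference of the differences was 0.11 ± 0.53 for Egr3, 0.13 ± 0.77 for Egr1 and 0.70 ± 1.10 for Nr4a1.

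Fosb, Egr2, Egr3 and Myc were each listed in more than 1 RefSeq row, and reads of the exons that rows share had to be divided between them, so the split is uncertain. Of the Fosb rows, NM_008036 held 46.5% to 78.0% of the gene's TPM in cultured libraries, where no row passed 3.33 TPM, against 93.0% and 96.7% in naive libraries, and NM_001347586 held the rest. Egr2 rows NM_010118 and NM_001347458 were both higher than in div12 in div12_48_d (3.02 and 2.42) and in div12_48_u (3.13 and 2.44), with limma adjusted p = 0.00839 and 0.000997 in div12_48_d and 0.0027 and 0.000365 in div12_48_u. Of the 3 Egr3 rows, NM_018781 was called higher than in div12 in div12_48_d (1.57, adjusted p = 0.00717), and NM_001289925 and NM_001289927 had changes of 1.19 and 0.96 (adjusted p = 0.133 and 0.202). With all libraries in the fit, NM_018781 alone of the 3 was called lower in both division comparisons, at -0.93 ± 0.27 in div12_48_d against div12_48_u (adjusted p = 0.0385) and -1.11 ± 0.27 in div12 against div0 (adjusted p = 0.0433).

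Myc was listed in 2 rows, and NM_001177352 held 63.7% to 82.9% of its TPM. The smaller row, NM_001177354, stood at 42.2 and 63.4 TPM in div12_48_d, 54.6 and 62.7 TPM in div12_48_u, 29.8 and 32.7 TPM in div12, 57.1 and 63.2 TPM in div0, and 201 and 113 TPM in naive libraries. Both div12 libraries were the lowest, with no overlap with any other group. It was called higher in div12_48_u than in div12 (0.89 ± 0.27, limma adjusted p = 0.0282), and NM_001177352 had a change of 0.19 ± 0.41 (adjusted p = 0.759). The table holds 2 of the 4 curated RefSeq transcripts of Myc.

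Of 10 listed AP-1 family members and partners of FOS 8 were in the table. Compared with div12, 3 of the 8 rose in div12_48_d and 0 fell, where 11.9% of all genes rose and 4.09% fell, and 2 of the 8 rose in div12_48_u and 1 fell, where 27.7% rose and 13.6% fell, so the div12_48_u share is near that of all genes. The called genes in div12_48_d were Jdp2 (1.25 ± 0.35, limma adjusted p = 0.0444), Jun (1.08 ± 0.25, adjusted p = 0.0234) and Jund (1.03 ± 0.12, adjusted p = 0.00169). Without the naive group 2 of the 8 rose in div12_48_d, where 15.8% of all genes rose. With the 3 other scalings 1 to 3 of the 8 rose. The number was also lower in each fit with a single library left out. In div12_48_u against div12, Jun (1.58 ± 0.25, limma adjusted p = 0.00179) and Jund (1.17 ± 0.12, adjusted p = 0.000353) rose and Batf, a partner factor that supports antibody class switching, fell (-0.64 ± 0.10, adjusted p = 0.00143). Jun stood at 28.1 and 51.1 TPM in div12_48_d, 46.1 and 64.0 TPM in div12_48_u, 17.2 and 17.7 TPM in div12, 31.8 and 32.3 TPM in div0, and 447 and 422 TPM in naive libraries. Batf ran the other way between naive and cultured cells, at 187 and 168 TPM in div12_48_d, 90.9 and 92.0 TPM in div12_48_u, 133 and 153 TPM in div12, 93.1 and 93.3 TPM in div0, and 64.4 and 66.8 TPM in naive libraries. It was 0.95 ± 0.10 higher in div12_48_d than in div12_48_u (adjusted p = 0.000739) and 0.61 ± 0.10 higher in div12 than in div0 (adjusted p = 0.0153). Atf3, an immediate early relative, stood at no more than 1.64 TPM in any cultured library and at 254 and 14.6 TPM in the naive pair.

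Nab2, the corepressor that binds EGR proteins, ranked the cultured groups as the means of the EGR genes did. It stood at 119.8 and 134.8 TPM in div12_48_d, 155 and 195 TPM in div12_48_u, 55.8 and 51.8 TPM in div12, 70.4 and 68.2 TPM in div0, and 73.0 and 130.9 TPM in naive libraries, and no 2 cultured groups overlapped. It was higher than in div12 by 1.23 ± 0.24 in div12_48_d (limma adjusted p = 0.0108) and by 1.68 ± 0.24 in div12_48_u (adjusted p = 0.00113). The Nab2 call in div12_48_d was not kept in every fit with a single library left out. Its relative Nab1 stayed between 53.7 and 73.0 TPM in all 8 cultured libraries. Nr4a2 and Nr4a3, the other NR4A receptors, were at most 13.1 TPM in culture, and their naive libraries were far apart, at 139.8 and 14.1 TPM for Nr4a2 and 45.1 and 3.55 TPM for Nr4a3.

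Of 33 other immediate early genes 21 were in the table. Compared with div12, 4 of the 21 rose in div12_48_d and 0 fell, where 11.9% of all genes rose and 4.09% fell, while 8 rose in div12_48_u and 1 fell, where 27.7% rose and 13.6% fell. Zfp36, which encodes a protein that speeds the decay of short-lived RNAs, was 1.28 ± 0.34 higher in div12_48_d (limma adjusted p = 0.0385) and 2.36 ± 0.34 higher in div12_48_u (adjusted p = 0.00124). Dusp2, a nuclear phosphatase of MAP kinases, was 1.19 ± 0.10 higher in div12_48_d (adjusted p = 0.00048) and 1.75 ± 0.10 higher in div12_48_u (adjusted p = 6.75e-05). Klf2, a factor of B cell quiescence and homing, was 1.93 ± 0.24 and 1.65 ± 0.24 higher, with adjusted p = 0.0017 and 0.00123. The list's median change was 0.53 in div12_48_d and 0.71 in div12_48_u, beside 0.08 and 0.16 over all genes. Without the naive group 8 of the 21 rose in div12_48_d and 0 fell, and 14 rose in div12_48_u and 3 fell. With the 3 other scalings 3 to 4 of the 21 rose in div12_48_d and 6 to 8 in div12_48_u. Leaving out either naive library alone raised the number that rose in both comparisons. Leaving out a single cultured library lowered it in several fits. Without the naive group 15.8% of all genes rose in div12_48_d and 32.9% in div12_48_u.

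Genes that MYC is known to activate for growth differed between cultured groups in which Myc itself did not pass. Of 32 listed, 18 were in the table. In div12_48_u against div12 14 of the 18 fell and 1 rose, where 13.6% of all genes fell and 27.7% rose, with a median change of -0.56 beside 0.16 over all genes, and Myc stood at 0.37 ± 0.35 (limma adjusted p = 0.426). In div12_48_d against div12_48_u 12 of the 18 rose and 0 fell, where 12.2% of all genes rose and 25.6% were called either way. The median was 0.42 beside -0.08, with Myc at -0.05 ± 0.35. Fewer of the 18 rose when any 1 library of div12_48_d or div12_48_u was left out. The fewest rose without div12_48_d replicate 1, with a median change of 0.38. In div12_48_d against div12 0 of the 18 passed, where 11.9% of all genes rose and 4.09% fell. Without the naive group 2 rose, where 15.8% of all genes rose. Npm1, a nucleolar protein of ribosome assembly, stood at 3485 and 3223 TPM in div12_48_d, 2228 and 2239 TPM in div12_48_u, 3739 and 3676 TPM in div12, 2383 and 2530 TPM in div0, and 1555 and 1544 TPM in naive libraries. It thus lay higher in div12_48_d and div12 than in div12_48_u and div0, and lowest in naive cells, where Myc was highest. Against naive cells 13 of 18 rose and 0 fell in div12_48_d, 6 rose and 1 fell in div12_48_u, 13 rose and 0 fell in div12, and 10 rose and 1 fell in div0. Of all genes, 21.8% rose and 40.6% fell in div12_48_d, 15.2% rose and 27.2% fell in div12_48_u, 19.4% rose and 47.5% fell in div12, and 15.4% rose and 39.6% fell in div0.

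**Figure D4:**
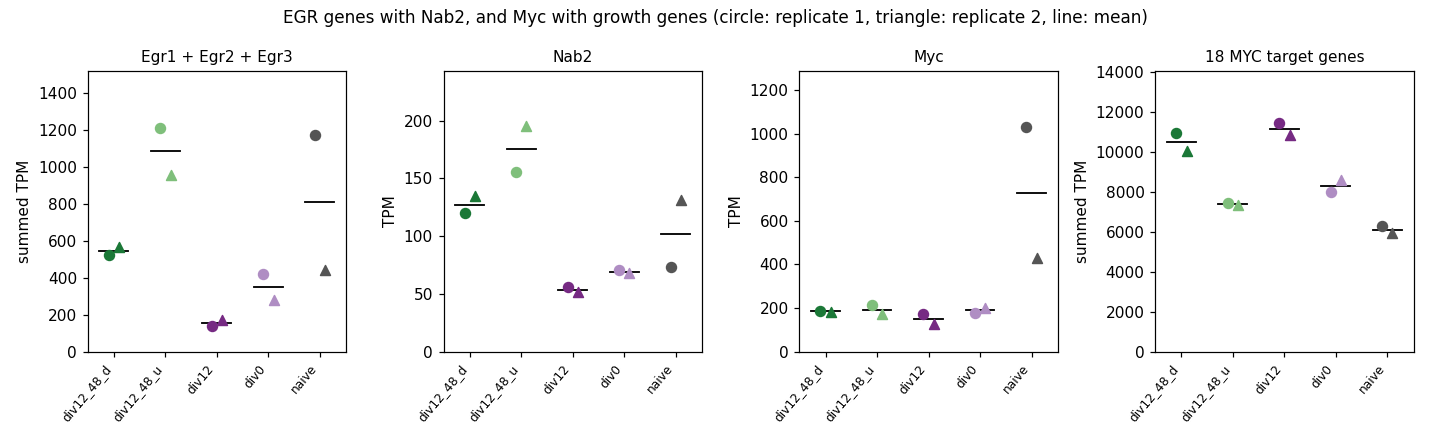
Summed TPM of Egr1, Egr2 and Egr3, TPM of Nab2, TPM of Myc and summed TPM of 18 MYC target genes in each library, with circles for replicate 1, triangles for replicate 2 and lines for the mean. Nab2 is highest in div12_48_u and lowest in div12 as the EGR sum is among cultured cells, and the MYC targets are higher in div12_48_d and div12 than in the other groups while Myc lies between 125 and 212 TPM in all cultured libraries.

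Among the 5 listed genes of the MYC network in the table, 1 rose and 0 fell in div12_48_d compared with div12. In div12_48_u 2 rose and 1 fell. Of all genes, 11.9% rose and 4.09% fell in div12_48_d, and 27.7% rose and 13.6% fell in div12_48_u. Max stood at 208 to 277 TPM in the 8 cultured libraries and was 0.37 ± 0.11 higher in div12_48_u than in div12 (limma adjusted p = 0.0223). Usp28, an enzyme that protects MYC from degradation, was 1.07 ± 0.10 higher in div12_48_u than in div12 (limma adjusted p = 0.000251) and 0.49 ± 0.10 higher in div12_48_d than in div12 (adjusted p = 0.0168). Of the kinases and factors that act upstream on the serum response element and CREB sites, 9 of 14 were in the table. Compared with div12, 0 of the 9 rose and 1 fell in div12_48_d, where 11.9% of all genes rose and 4.09% fell. In div12_48_u 2 rose and 0 fell, where 27.7% of all genes rose and 13.6% fell, so the share that rose is near that of all genes. Creb1, which encodes CREB itself, was the one that fell in div12_48_d (-0.50 ± 0.12, limma adjusted p = 0.0243), at 57.5 and 53.2 TPM in div12_48_d against 78.1 and 79.1 TPM in div12, and it stood at -0.15 ± 0.12 in div12_48_u (adjusted p = 0.352). Srf itself lay between 74.7 and 94.2 TPM in all 8 cultured libraries, and Elk4, a partner of SRF, was 0.93 ± 0.11 higher in div12_48_u than in div12 (adjusted p = 0.000525), as was the kinase gene Rps6ka3 (0.77 ± 0.12, adjusted p = 0.00169).

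The genes whose levels ran most like each of the 7 were looked up by the Pearson correlation of log2(TPM + 1) over the 8 cultured libraries, among 3263 genes. The libraries come in pairs of 1 group and share a fixed total, so these values are a description and carry no test. Nr4a1 was nearest to Pik3cd (r = 0.998) and Nfatc1 (r = 0.995), a catalytic subunit of PI3-kinase and a calcium-regulated factor that act downstream of the antigen receptor in B cells. Fos was nearest to Fcrla (r = 0.997), an Fc receptor-like protein of B cells, and Fosb to Fcrla (r = 0.957) and to Fos (r = 0.956). Egr1 was nearest to Aftph (r = 0.979), Egr2 to Wdr13 (r = 0.989), Egr3 to Rab6a (r = 0.997), a small GTPase of Golgi transport, and Myc to Xxylt1 (r = 0.949). Over all 10 libraries, in which the naive pair sets most of the range, the nearest were Ccr7 to Nr4a1 (r = 0.993), a homing receptor, and Rasgrp2 to Fos (r = 0.986), an exchange factor for small GTPases.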

How the data were processed

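Per the labels' protocols, total RNA (100 ng) depleted of ribosomal RNA was sequenced on a NextSeq 500 (single end, 50 bp). The deposited values are TPM, a unit already scaled by the authors for length and library total. The build mm10 and the tools Salmon, HISAT2, HTSeq, featureCounts and DESeq2 appear in the submitters' processing notes, with roles, versions and strand settings not given in the sources used here. TPM keeps no counts, so depth is unknown, and no count model or counting interval was used.

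Of 13128 rows, 63 without a usable symbol (0.204% to 0.379% of TPM) were left out and the rest summed into 6610 genes. limma 3.58.1 (R 4.3.3) was fitted on log2(TPM + 1) over all 10 libraries with a term for group and a trend of variance on mean, and p-values (two-sided, threshold 0.05) were adjusted by Benjamini-Hochberg, for 4427 genes with at least 1 TPM in 2 libraries, leaving 5 residual degrees of freedom. The fit was checked on simulated data. Members and lists were chosen with earlier results of these data known.

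In every comparison the text could name the 7 genes, up to 4 called members per list with the largest change and a group mean of at least 10 TPM (otherwise up to 2 of the most abundant), and the 3 genes most correlated with each of the 7. Values of other listed genes (Nr4a2, Nr4a3, Atf3, Srf, Max and Hspa1a) were added after they were seen. Alternatives were a pseudocount of 0.1 or 5, no filter or one at 5 TPM, 3 other scalings, the compared groups alone, the replicate block, no trend, the most abundant row and leaving out each library. A fit without the naive group and each row as its own feature were also run. Promoters are from RefSeq (GRCm38.p6), exons from GENCODE. Figures used Python 3.11.15 and matplotlib 3.10.9.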

Additional observations from a re-analysis of the deposited data

How the results depend on the processing

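Of the log2 changes of the 7 genes over all alternatives, 54 came to pass the threshold and 52 no longer passed. Another 1495 stayed on the same side of it, and these include changes of sign in which neither fit passed. A change of sign in which a fit passed occurred for 1, Egr3 in div12_48_u against naive. It was 0.08 in the fit of all libraries, -0.67 without naive replicate 2 and 0.82 without naive replicate 1. Numbers of the 7 genes called moved as follows. In div12 against div0 there were 1 with the compared groups alone and 2 without the naive group, and 0 to 2 with each library left out. In div12_48_d against div12_48_u there were 2, 1 and 0 to 1. In div12_48_d against div12 there was 1 with no filter, 5 without the naive group, and 1 to 5 with each library left out. In div12_48_u against div0 there was 1 with no filter, 5 with the compared groups alone, 5 without the naive group, and 0 to 5 with each library left out. Leaving out a naive library removes the naive spread from the shared estimate, and the lone library is assumed to vary like the other groups. Other causes were not tested. The calls over all genes moved as well. In div12 against div0 they were 388, and 69 to 601 over the alternatives that kept 2 libraries in each group. In div12_48_d against div12_48_u they were 1134, and 670 to 1428 over these alternatives. In div12_48_d against div12 they were 706, and 412 to 962. In div12_48_u against div0 they were 680, and 466 to 981. Leaving out single libraries moved them over a wider range in each of these comparisons. Deviations of same-numbered libraries correlated at -0.24 to 0.20 over 10 pairs of groups, and 3 were over 0.1. The highest was that of div12_48_d with div12_48_u. With 2 libraries a group these values cannot show whether replicate numbers pair the samples. With the replicate block, 4 of the 7 genes were called in div12_48_u against div12 and 3 in div12_48_d against div12, as without it, and the calls over all genes in div12 against div0 were 247. Between phases, the share of called genes that were higher was 67.0% in div12_48_u against div12 and 46.2% with median-ratio scaling. Depth is unknown, so how far it limits Fosb, under 5 TPM in culture, cannot be given.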
